A study of Mus musculus with 4 samples.

Results

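The glycolysis and hypoxia genes are a fixed list of 35 genes, chosen by symbol with earlier results of these data known. They make or control the enzymes of glycolysis and the cellular response to low oxygen. All 35 were found among the 32592 genes of the table, and all 35 passed the filter on low values. They fall by role into 4 transporters of glucose and lactate, 17 glycolytic enzymes, 2 kinases that set the direction of flux (Pfkfb3 and Pdk1), 6 regulators of the hypoxia-inducible factors and 6 other hypoxia targets. The material was CCE, an established line of mouse embryonic stem cells (strain 129/Sv) kept without feeders on gelatin, in high-glucose medium with serum and leukemia inhibitory factor, and its poly(A) RNA was sequenced. Of 4 libraries, 2 received short hairpin RNAs (shRNAs) directed at eIF4A2 (the labels' protocol names sheIF4A2-2 and sheIF4A2-3) and 2 received control shRNAs (shLuc and shEV). All cells, controls included, were selected in 1 µg/mL puromycin for 3 days and collected on day 4.5. The labels do not say which hairpin each library received or whether replicates were grown apart. A p-value here therefore reflects the spread between these samples alone, and that spread may be technical.

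Glycolysis splits glucose into pyruvate, and embryonic stem cells are known to rely on it even when oxygen is present. Hexokinase traps glucose in the cell and phosphofructokinase commits it to the pathway, and both steps are served by several isozymes from separate genes. In the oxygen response, prolyl hydroxylases of the Egln family mark the alpha subunits Hif1a and Epas1 (HIF2 alpha), the Vhl ubiquitin ligase then has them destroyed, and in low oxygen the spared subunits pair with Arnt and switch on target genes, among them glycolytic enzymes and Vegfa.

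The libraries held between 4604200 reads (control 2) and 13681765 reads (control 1), so control 2 was measured with the least precision. Levels below are the authors' normalized counts, which scale each gene's reads to an effective library size. Where 4 levels of a gene are given, the first pair is knockdown 1 and knockdown 2 and the pair after "against" is control 1 and control 2, as the libraries are labelled. Eif4a2 itself was at 752.5 and 814 against 530.6 and 379 (log2 change 0.80, SE 0.15, limma adjusted p = 0.014). The targeted transcript thus goes against its label, and "rose" and "fell" mean here only that the libraries labelled knockdown were higher or lower than the libraries labelled control. The 10 embryonic stem cell markers were all detected in each library. Summed, they reached 9557 and 9196 against 12600 and 12000, and 4 of the 10 fell (Zfp42, Klf4, Esrrb and Sox2). The 15 fibroblast markers summed to 305.1 and 331.7 against 178.8 and 136.2, and 3 of the 10 that could be tested rose (Cald1, Col1a1 and Pdgfrb). Over all genes tested, 10.5% rose and 12.4% fell. The defining markers Dcn and Lum were at 0 in all libraries, and Cald1 made up most of the sum. The part of either shift in the results below was not tested. In these bulk samples, fewer cells of a type and less RNA per cell cannot be told apart.

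Of the 35 genes, 7 rose, 7 fell and 21 did not pass at a limma adjusted p below 0.05. That is 40% called, where 23.0% of all 14890 genes tested were called (10.5% rose and 12.4% fell). The list was chosen with earlier results of these data known, so the difference is a description and not a test of enrichment. The authors' deposited table called 9 members higher and 7 lower, against 24.2% of the genes tested. In edgeR's quasi-likelihood test 7 members rose and 8 fell, against 25.3% called. The members' median log2 change was 0.13, against -0.01 over all genes tested. Those that rose were Pfkm, Adm, Pfkfb3, Hk1, Vegfa, Vhl and Slc2a1, and those that fell were Bnip3, Epas1, Pfkp, Pgam1, Hk2, Eno1 and Hif1a. Adm entered the test through the libraries labelled knockdown alone, since both controls were below the filter on low values. In 27 of the 35 the libraries of one label lay wholly above those of the other (13 higher and 14 lower), against 66.8% of all genes tested. Scaled by library size alone, 2152 of all genes tested rose and 996 fell, against 1567 and 1851 on the deposited scaling, so the balance of directions is relative to the scaling used.

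**Figure D1:**
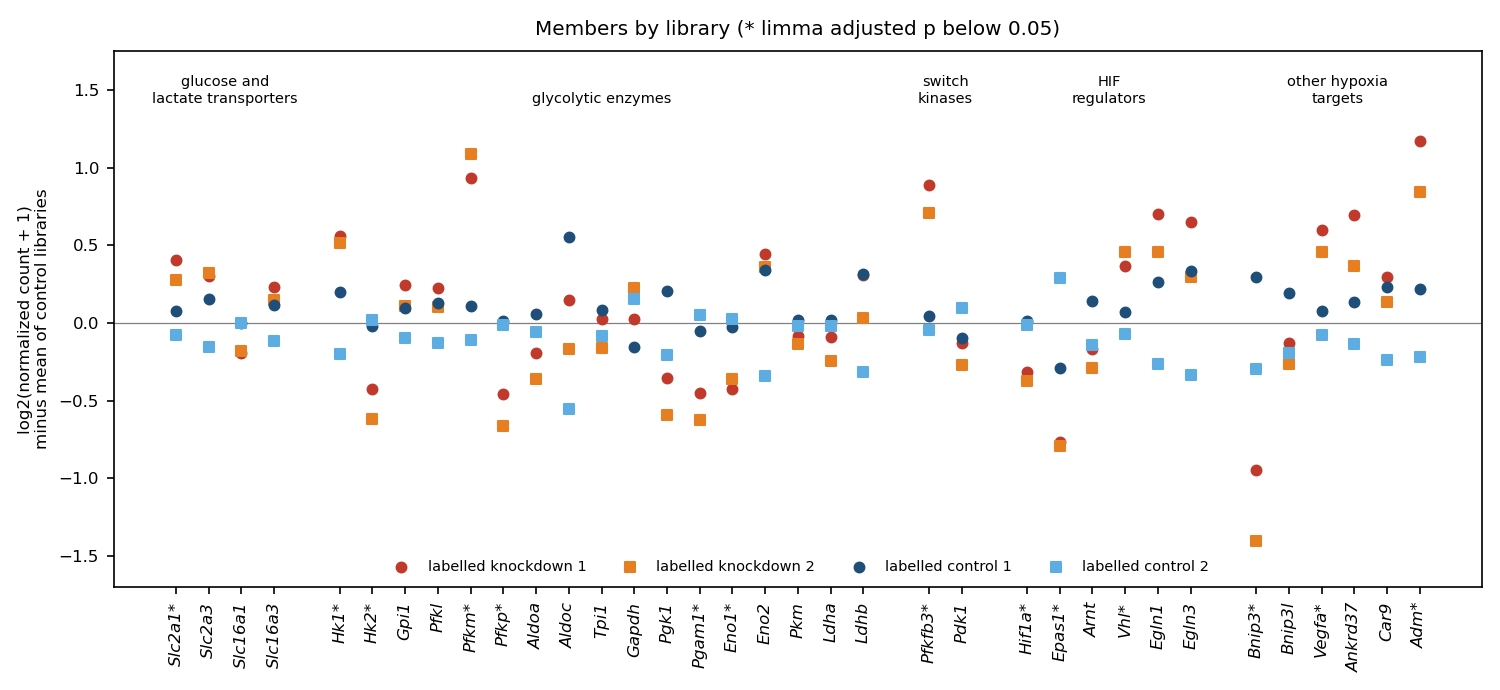
Level of each of the 35 genes in each library, as log2(normalized count + 1) minus the mean of the libraries labelled control, ordered by role; an asterisk marks an adjusted p below 0.05. Pfkm (mean change 1.01), Adm (1.01) and Pfkfb3 (0.80) lie highest and Bnip3 (-1.17) lowest in the libraries labelled knockdown. Adm met the filter on low values in those libraries alone.

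The core of the hypoxia response element, the DNA motif that the HIF dimer binds, was looked for before the starts of the members. The sequence ACGTG was searched on both strands in the 250 bases before each RefSeq start (GRCm38.p6). Promoters were found for 32 of the 35 members (not for Bnip3l, Epas1 or Slc2a3). The motif was present before at least 1 start of 18 of these 32, or 56.2%, against 18.5% of the 27025 genes with a promoter. It lay before 4 of the 7 members that rose and before 4 of the 6 members that fell and had a promoter. The motif was also before starts of members that did not pass, among them Ldha, Pgk1 and Pkm. Counted by start, since some genes have several, 21 of 46 held it (45.7%), against 16.6% of 32851. The list holds known HIF targets, so a higher share than over all genes can come from how it was chosen. The site nearest to a start is shown for the 8 called members with the motif, so that the letters and their surroundings can be read for both directions. The difference between the directions was not tested. Capitals mark the motif, read as ACGTG on the gene's own strand or as its reverse complement CACGT.
Slc2a1: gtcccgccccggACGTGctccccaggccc
Pfkfb3: acccttctctccACGTGaaagggggctgg
Pfkm: attaagtatgccACGTGaagtaagtaatt
Vegfa: ggagtgcgtgccCACGTcagagagcaaca
Hk2: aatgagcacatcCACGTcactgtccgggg
Pgam1: cgctccttgcttACGTGcgctccgtgact
Hif1a: tggctgagagcaACGTGggctggggtggg
Bnip3: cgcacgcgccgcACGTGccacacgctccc
The first 4 belong to members that rose and the last 4 to members that fell. On GRCm38.p6 the windows are chr4:119108697-119108725 on the plus strand for Slc2a1, chr2:11502126-11502154 on the minus strand for Pfkfb3, chr15:98092442-98092470 on the plus strand for Pfkm and chr17:46025358-46025386 on the minus strand for Vegfa. They are chr6:82774490-82774518 on the minus strand for Hk2, chr19:41911745-41911773 on the plus strand for Pgam1, chr12:73907785-73907813 on the plus strand for Hif1a and chr7:138909597-138909625 on the minus strand for Bnip3. The motif lay 34 bases before the start in Slc2a1, 50 in Hk2 and Pfkfb3, 68 in Hif1a, 105 in Bnip3, 112 in Pgam1, 133 in Pfkm and 209 in Vegfa. The windows of Vegfa, Pfkfb3 and Hif1a lie before internal starts, within the span of the gene. Those of Vegfa and Slc2a1 overlap an annotated exon. In Bnip3, Pfkfb3 and Pfkm the motif is part of CACGTG, the palindromic E-box that other factors bind, which is before the start of 6.9% of all genes with a promoter. The variant core GCGTG was before a start of 20 of the 32 members, against 30.9% of all genes with a promoter. A match is a description of the letters and not a measured binding site.

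Of the 4 transporters, 1 rose and 3 did not pass (25% called, against 23.0% of all genes tested, median log2 change 0.25). Slc2a1, which encodes the widely expressed glucose transporter GLUT1, was at 1455 and 1335 against 1163 and 1041. Both knockdown values lay above both controls, a 1.27-fold rise (log2 change 0.34, SE 0.10, limma adjusted p = 0.0471). Slc2a3, which encodes the high-affinity transporter GLUT3, was the most abundant member by counts, at 3093 and 3140 against 2794 and 2255. Its groups did not overlap either, but the spread of the controls was large and it did not pass (log2 change 0.31, SE 0.13, limma adjusted p = 0.115). Slc2a3 did pass in the authors' deposited table (adjusted p = 0.0148), and in limma with library size only. It also passed without either control, but many more of all genes tested passed in those fits. The ratio of Slc2a1 to Slc2a3 within a library was 0.47 and 0.425 against 0.416 and 0.462, so the balance of the pair overlapped between the groups. The lactate transporters did not pass: Slc16a1 (MCT1) was at 260.3 ± 1.35 against 296 ± 0.35 and Slc16a3 (MCT4) at 212.3 ± 8.76 against 186.1 ± 21.3 (SD, n = 2 each). Slc2a1 lost its call after GC adjustment with or without the replicate block, with a pseudocount of 3, with no filter on low values and when either knockdown library was left out. A noncoding gene, Gm12868, overlaps its exons on the opposite strand by 105 bases, and whether strand was counted is not stated.

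Of the 17 glycolytic enzymes, 2 rose (Hk1 and Pfkm), 4 fell (Hk2, Pfkp, Pgam1 and Eno1) and 11 did not pass. That is 35.3% called, against 23.0% of all genes tested (10.5% rose and 12.4% fell). The median log2 change of the enzymes was -0.07 and their range -0.56 to 1.01. Scaled by library size alone, their median was 0.06, while the median of all genes moved from -0.01 to 0.10. The median was 0.03 without knockdown 2. The sign of the median thus followed the scaling and 1 library. The largest rise was that of Pfkm. The falls of Pfkp, Pgam1 and Hk2 were close in size (-0.56, -0.54 and -0.52), and their order differed between the alternatives.

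Hexokinase, the step that traps glucose, changed in opposite directions in its isozymes. Hk1 (ENSMUSG00000037012, chr10:62268855-62379908, minus strand, GRCm38), the isozyme of most adult tissues, was at 119.9 and 116.5 against 93.4 and 70.37. Both knockdown libraries stood above both controls, which differed from each other more than the knockdowns did. Hk1 rose 1.45-fold (log2 change 0.54, SE 0.13, limma adjusted p = 0.0317). Hk2 (ENSMUSG00000000628, chr6:82725025-82774454, minus strand), the inducible isozyme and a known HIF target, was at 388.3 and 339.4 against 513.8 and 528.4. All knockdown values were below all controls, and Hk2 fell 1.43-fold (log2 change -0.52, SE 0.09, limma adjusted p = 0.0114). Per kilobase of the longest coding transcript, Hk1 made up 28.5% and 30.7% of the hexokinase pair, against 19% and 14.7%. Hk2 was thus the main isozyme in every library. The ratio of Hk1 to Hk2 within a library was thus raised 2.09-fold under the knockdown label. No factor applied to a whole library can alter this ratio, but an adjustment by gene can. After GC adjustment the log2 changes were 0.40 for Hk1 and -0.53 for Hk2. With 2 libraries against 2, an exact permutation test of such a ratio cannot go below p = 0.333. Hk1 lost its call after GC adjustment and without either knockdown library (its log2 change was 0.34 without control 2), and Hk2 lost it without knockdown 2.

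Phosphofructokinase, the committed step, showed the same kind of split. Pfkm (ENSMUSG00000033065, chr15:98092589-98132451, plus strand), the muscle-type subunit, was at 88.34 and 98.42 against 49.38 and 42.32. No values overlapped, and Pfkm rose 2.02-fold (log2 change 1.01, SE 0.11, limma adjusted p = 0.00388), the smallest p of the 35 genes. Pfkp (ENSMUSG00000021196, chr13:6579768-6648777, minus strand), the platelet-type subunit, was at 235.8 and 203.9 against 327.4 and 320.4. It fell 1.48-fold (log2 change -0.56, SE 0.09, limma adjusted p = 0.0098). Pfkl, the liver-type subunit, was at 394.6 and 362 against 368.9 and 308.2, with overlapping groups (log2 change 0.16, limma adjusted p = 0.296). Within a library, the ratio of Pfkm to Pfkp was raised 3.01-fold under the knockdown label.

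Per kilobase of the longest coding transcript, Pfkm made up 15.9% and 19% of the 3 subunits, against 8.79% and 8.42%. Pfkp made up 29.4% and 27.3% against 40.5% and 44.3%, and Pfkl, the largest share in each library, 54.7% and 53.8% against 50.7% and 47.3%. With the length of all exons joined in place of the longest transcript, Pfkm held 25.6% and 29.8% and Pfkp 17.1% and 15.4% in the libraries labelled knockdown, so which of the pair is more abundant there depends on the length used. On that length Pfkl held 57.3% and 54.8% against 58.5% and 55.8%, with overlapping groups, so the direction of its share also depends on the length. The higher share of Pfkm and the lower share of Pfkp held with both lengths. The 3' exons of Pfkp overlap those of Pitrm1 on the opposite strand by 748 bases, and Pitrm1 was at 63.92 and 67.04 against 100.3 and 80.56. Reads from the shared stretch cannot be told apart without strand. The exons of Pfkm overlap those of Gm26513 on the same strand by 341 bases and those of Senp1 on the opposite strand by 18. How reads there were assigned is not stated. Pfkp lost its call without knockdown 2, while Pfkm kept it with each library left out.

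**Figure D2:**
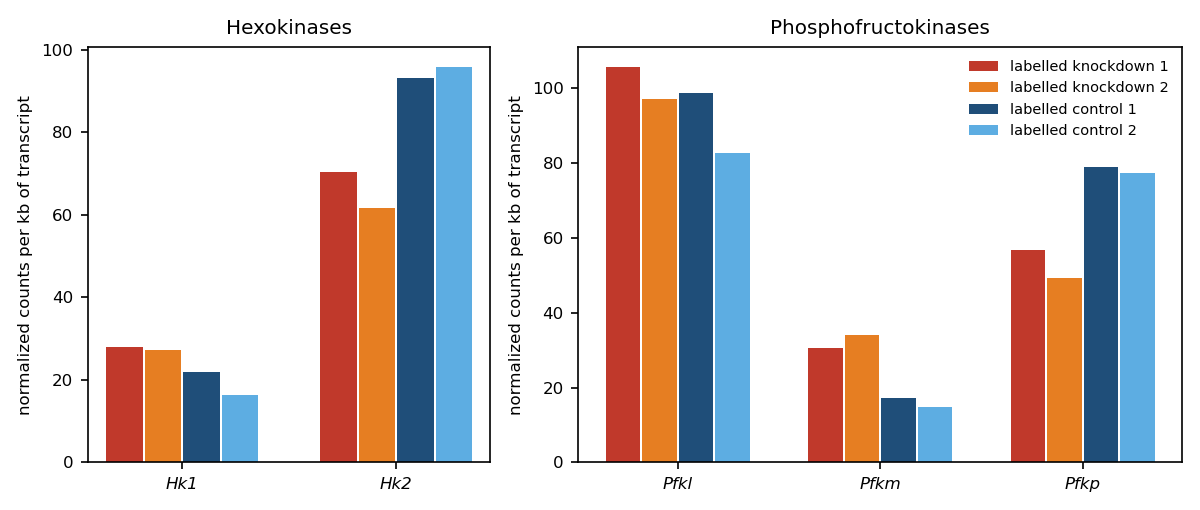
Hexokinase and phosphofructokinase transcripts in each library, as normalized counts per kilobase of the longest coding transcript; each bar is 1 library. Hk1 and Pfkm bars are taller, and Hk2 and Pfkp bars shorter, in both libraries labelled knockdown than in either library labelled control.

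In the middle and lower part of the pathway, the abundant transcripts Pkm, Aldoa and Ldha did not pass the test. Pkm, pyruvate kinase, was at 2294 and 2217 normalized counts against 2464 and 2395, and did not pass (log2 change -0.11, limma adjusted p = 0.439). Aldoa, the main aldolase, was at 1288 and 1144 against 1532 and 1414 (log2 change -0.28, limma adjusted p = 0.0858). Ldha, which turns pyruvate into lactate, was at 1121 and 1009 against 1210 and 1180 (log2 change -0.17, limma adjusted p = 0.221). In all 3 genes the knockdown libraries were lower without overlap, as in 34.6% of all genes tested, and none passed on the deposited values. After GC adjustment Aldoa passed, with and without the replicate block (log2 change -0.42), and Pkm was at -0.27 without passing. Aldoa and Ldha also passed without either control, but many more of all genes tested passed in those fits. Per kilobase, Pkm, Aldoa and Slc2a3 ranked 32, 37 and 51 among the 14890 genes tested.

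Gpi1 and Tpi1, the isomerases, had changes of 0.17 and -0.07 on the log2 scale and did not pass, and Tpi1 was 0.06 with library size only. Pgk1, the first enzyme of the pathway to yield ATP, was at 132.2 and 111.8 against 195.3 and 146.2. It was lower in both knockdown libraries but just missed the threshold (log2 change -0.47, SE 0.15, limma adjusted p = 0.0596). It passed in edgeR's quasi-likelihood test, with DESeq2, with the replicate block and in the authors' deposited table (adjusted p = 0.015). Pgk1 also passed without either control, but many more of all genes tested passed in those fits. The second aldolase, enolase and lactate dehydrogenase genes, Aldoc, Eno2 and Ldhb, did not pass, with changes of -0.01, 0.40 and 0.17. For Aldoc the control libraries were at 50.41 and 22.85, so 1 control lay above and 1 below both knockdown libraries, at 37.73 and 30.13.

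The levels of 4 enzymes have to be read with their near-identical copies. Gapdh, usually among the most abundant transcripts of a cell, was at only 21.93 and 25.31 against 19.21 and 23.99 normalized counts. It ranked 5373 per kilobase and did not pass (log2 change 0.13, limma adjusted p = 0.583, and -0.02 without control 1). Its longest coding transcript aligned at 95% identity or more over at least 100 bases with transcripts of 76 other genes in GENCODE M21, of which 73 are pseudogenes. Of its windows of 100 bases, the read length, 78.1% were found unchanged in such a gene. The same share was 67% for Pgk1, 59% for Eno1 and 39.7% for Pgam1, and at most 8.8% for the other 13 enzymes. How reads that map to several places were treated is not given in the sources used here, so the levels of these 4 genes are uncertain.

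**Figure D3:**
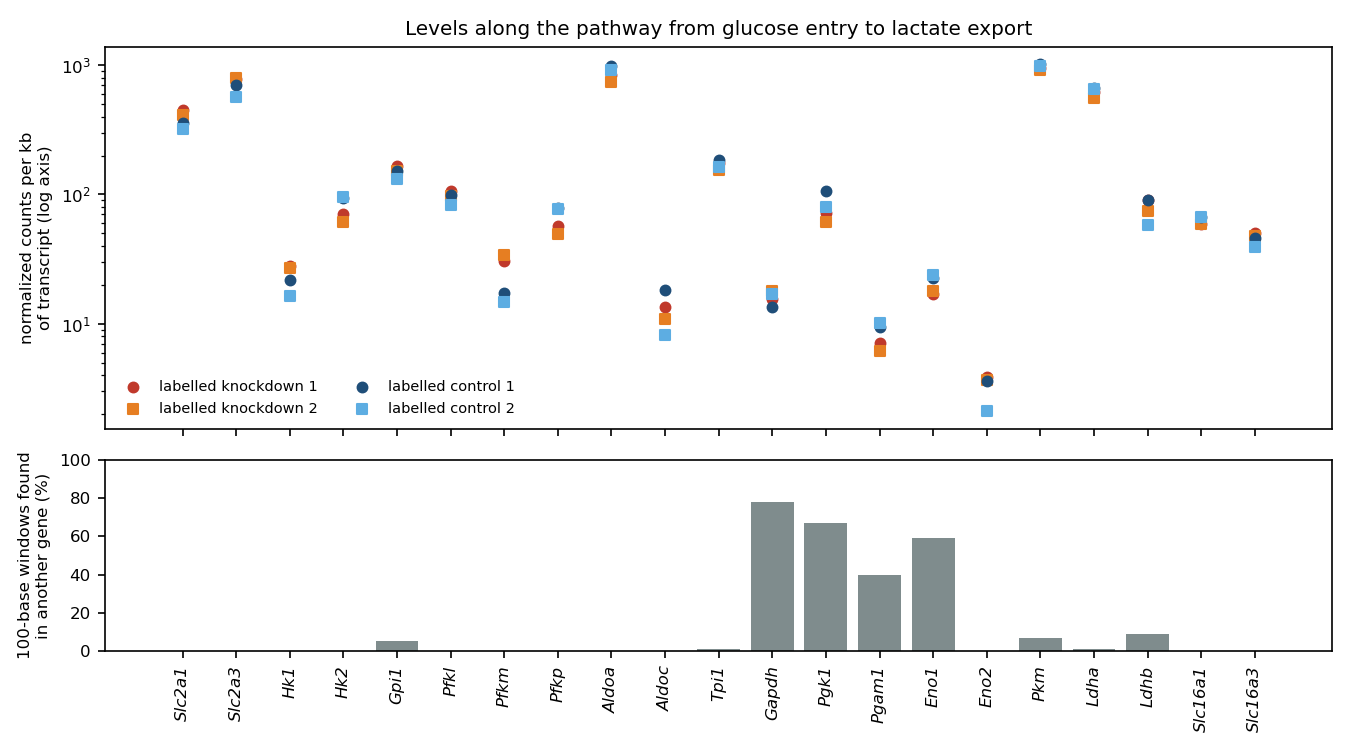
Top, normalized counts per kilobase of the longest coding transcript on a log axis for each library, in pathway order; bottom, the percentage of each transcript's 100-base windows found unchanged in another gene. Gapdh, Pgam1 and Eno1, which share 78.1%, 39.7% and 59% of their windows, are listed well below Aldoa, Pkm and Ldha, but Pgk1, which shares 67%, stands higher, and Aldoc and Eno2, which share 0%, are as low.

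The copies held reads of their own. Eno1, enolase, was at 34.71 and 36.36 against 46.07 and 47.97 and fell (log2 change -0.39, SE 0.10, limma adjusted p = 0.0349). Eno1b, whose transcript matched it at 99.5% over 1736 bases, was at 602.4 and 549 against 746.9 and 706.9, between 14.7 and 17.4 times the reads of Eno1. The Eno1b row fell too (log2 change -0.34, SE 0.09, limma adjusted p = 0.0343), although not by the authors' deposited table (adjusted p = 0.0922). With the reads of its copies added, Eno1 was at 638.6 and 587.7 against 797.2 and 757.1, and the fall was of like size (log2 change -0.34, SE 0.09, limma adjusted p = 0.032). Gm1840, a pseudogene row that matched Gpi1 at 98.7% over 1046 bases, was at 916 and 830.7 against 876.7 and 773.9, more than Gpi1 itself in each library. Pgam1, phosphoglycerate mutase, was at 12.52 and 10.98 against 16.85 and 18.1 and fell 1.45-fold (log2 change -0.54, SE 0.15, limma adjusted p = 0.0447), and with its copy added it fell by 0.55. The alternative with copies added was chosen after seeing the data. Neither Eno1 nor Pgam1 passed with DESeq2, with library size only or without either knockdown library. Pgam1 also lost its call with no filter on low values, with upper-quartile scaling and after thinning all libraries to equal totals.

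The 2 kinases that set the direction of flux differed from each other. Pfkfb3 (ENSMUSG00000026773, chr2:11471433-11554077, minus strand) makes fructose 2,6-bisphosphate, the strongest activator of phosphofructokinase, and is a known HIF target. It was at 53.8 and 47.34 against 29.51 and 27.61. The groups were far apart, and Pfkfb3 rose 1.74-fold (log2 change 0.80, SE 0.12, limma adjusted p = 0.00696). Pdk1, which blocks the entry of pyruvate into the citric acid cycle and is also a HIF target, was at 346 and 314.3 against 353.3 and 405.5. It did not pass (log2 change -0.20, SE 0.10, limma adjusted p = 0.181). Pfkfb3 missed the threshold without knockdown 1.

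Among the 6 regulators of the hypoxia-inducible factors, both alpha subunits fell, Vhl rose and 3 did not pass. That is 50% called, against 23.0% of all genes tested. Hif1a (ENSMUSG00000021109, chr12:73901375-73947530, plus strand) was at 168.2 and 161.5 normalized counts against 212 and 207.7, with little spread in either group. It fell 1.27-fold (log2 change -0.35, SE 0.08, limma adjusted p = 0.0224), although not by the authors' deposited table (adjusted p = 0.155). Its exons overlap those of Gm15283 on the opposite strand by 330 bases and those of Gm49321 on the same strand by 148. Epas1 (ENSMUSG00000024140, chr17:86753700-86833410, plus strand) was at 57.09 and 56.22 against 79.85 and 120.2. It fell 1.72-fold (log2 change -0.78, SE 0.18, limma adjusted p = 0.0237), and the size followed the control used, since the log2 change was -1.07 without control 1 and -0.49 without control 2. Vhl (ENSMUSG00000033933, chr6:113623959-113631633, plus strand) was at 62.5 and 66.81 against 50.86 and 45.94 and rose 1.33-fold (log2 change 0.41, SE 0.10, limma adjusted p = 0.0309).

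Arnt, the shared partner of the alpha subunits, was at 136 and 124.7 against 168.1 and 138.5 (log2 change -0.23, limma adjusted p = 0.179). The prolyl hydroxylases Egln1 and Egln3, themselves HIF targets, had similar point estimates. Egln1 was at 100.9 and 85.26 against 74.41 and 51.14 and just missed the threshold (log2 change 0.58, SE 0.18, limma adjusted p = 0.0539), while it passed in the authors' deposited table (adjusted p = 0.0146). Egln3 was at 101.7 and 79.5 against 81.47 and 50.91, with overlapping groups (log2 change 0.47, limma adjusted p = 0.154). Hif1a lost its call with library size only (log2 change -0.22), after GC adjustment with or without the replicate block (-0.20), after thinning and without either knockdown library. Vhl lost it with DESeq2, after thinning and without either knockdown library. Egln1 passed with DESeq2, with library size only, with upper-quartile scaling, with DESeq2 size factors, after thinning and with the replicate block. Egln3 passed with the block. Egln1 also passed without either control and Egln3 without control 1, but many more of all genes tested passed in those fits.

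The 6 other hypoxia targets moved in both directions, with 2 that rose (Vegfa and Adm), 1 that fell (Bnip3) and 3 that did not pass. That is 50% called, against 23.0% of all genes tested. The median log2 change of these 6 targets was 0.37, against -0.07 for the glycolytic enzymes, and they ranged from -1.17 to 1.01. The median was 0.17 with a mean normalized count of at least 5, which leaves out Adm and Car9. Vegfa (ENSMUSG00000023951, chr17:46016993-46032369, minus strand), the main growth factor for blood vessels, was at 98.19 and 89.08 normalized counts against 68.08 and 61.1. All knockdown values were above all controls, and Vegfa rose 1.44-fold (log2 change 0.53, SE 0.10, limma adjusted p = 0.014). Adm, the vasodilator peptide adrenomedullin, was near the lower limit of these libraries. Its reads numbered 25 and 20 against 9 and 1. Scaled for depth, the pooled reads stood at 3.36 to 1, with exact 95% bounds of 1.67 and 7.48 that cover counting error alone. It passed the test (log2 change 1.01, SE 0.27, limma adjusted p = 0.0366). Adm met the filter on low values through the libraries labelled knockdown alone. Its place among the genes tested thus depended on the group in which it was high.

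Bnip3 (ENSMUSG00000078566, chr7:138890836-138909519, minus strand), a mitochondrial protein that marks mitochondria for removal, was at 24.59 and 17.68 normalized counts against 59.54 and 39.15. The groups did not overlap although each was spread widely. Bnip3 fell 2.25-fold (log2 change -1.17, SE 0.23, limma adjusted p = 0.0145), the largest fall of the 35 genes. Its relative Bnip3l (NIX), with the same role, was at 92.69 and 84.41 against 116 and 88.7 (log2 change -0.20, limma adjusted p = 0.326), and the ratio of Bnip3 to Bnip3l was 2.02-fold lower in the libraries labelled knockdown. Transcripts of other genes covered 94.2% of the Bnip3 transcript at 95% identity or more, and 18.8% of its 100-base windows were found unchanged in another gene, so part of its reads is uncertain. With the reads of its copy Gm16439 added, the log2 change was -1.15 (SE 0.23, limma adjusted p = 0.0168). Bnip3 also shares 504 exon bases with Gm45507 on the opposite strand.

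The remaining targets were low. Ankrd37 was at 9.23 and 7.16 against 5.96 and 4.75 (log2 change 0.53, SE 0.21, limma adjusted p = 0.109). Car9, carbonic anhydrase IX, a widely used marker of hypoxia, had 16 and 15 reads against 18 and 3, a depth-scaled ratio of 1.1 with exact 95% bounds of 0.614 and 2.02. Its log2 change was 0.21, and -0.02 without control 2. A difference smaller than these bounds could not be detected at this depth. Bnip3 kept its call with each library left out. Vegfa and Adm lost theirs without either knockdown library, and Adm also with DESeq2. The log2 change of Adm was 0.50 with a pseudocount of 3, 1.76 in edgeR and 1.94 in DESeq2.

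Other genes of the same pathways were read from 5 further lists, of 99 genes in all. Their shares called are to be read against the 23.0% of all genes tested (10.5% rose and 12.4% fell). Among 38 further hypoxia targets tested, 8 rose and 3 fell (28.9% called, median log2 change 0.16). Car12, carbonic anhydrase XII, rose 2.71-fold (16.16 and 16.98 normalized counts against 6.33 and 4.75). Ddit4, an inhibitor of the growth kinase mTORC1, rose 2.48-fold (268.8 and 253.1 against 133.4 and 81.69), and Ccng2, cyclin G2, 1.91-fold. Ak4, a mitochondrial adenylate kinase, fell 1.83-fold (90.29 and 72.57 against 164.7 and 134.4). The limma adjusted p of these 4 lay between 0.00548 and 0.00879. Like the members, these targets did not share 1 direction, as Car12 and Ak4 show.

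Of 14 other genes of the HIF pathway, 4 fell and 0 rose in limma (28.6% called, median -0.27), and edgeR's quasi-likelihood test also called 0 that rose and 5 that fell. At an unadjusted limma p below 0.05 the counts were 0 higher and 8 lower. Arnt2 fell 1.73-fold (7.72 and 7.01 against 13.39 and 13.58), and Cul2 and Elob, parts of the Vhl ubiquitin ligase, 1.27-fold and 1.28-fold. Cited2, which competes with HIF for its coactivators, fell 1.21-fold. Of these 14 genes, 13 had a negative log2 change, among which 9 did not pass. Some were close to no change, such as Os9 (-0.02). Over all genes tested, 7625 of 14890 had a negative log2 change on the deposited scaling.

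At the entry of pyruvate into mitochondria, 4 of 13 genes fell and 1 rose (38.5% called, median -0.21). Pdha1 and Dld, subunits of the pyruvate dehydrogenase complex, fell 1.38-fold and 1.43-fold, and Pcx, pyruvate carboxylase, 1.45-fold. Pdk4, a kinase that inhibits that complex, rose 1.9-fold (36.85 and 31.38 against 22.59 and 13.35). Of 7 pentose phosphate enzymes 3 fell (42.9% called), G6pdx (1.37-fold), Pgd (1.23-fold) and Rpe (1.24-fold). In limma and in edgeR's quasi-likelihood test 0 rose (1 higher and 3 lower at an unadjusted limma p below 0.05). The authors' deposited table called G6pdx alone lower (its adjusted p was 0.0941 for Pgd and 0.0705 for Rpe). Of 21 tested genes among 25 other glycolysis isoforms and side branches, 3 rose and 1 fell (19.0% called, median 0.17). The gluconeogenic enzyme genes Fbp2 (16.16 and 17.91 against 7.58 and 7.24) and Fbp1 (2.58 and 2.88 against 1.03 and 1.13) rose, as did the hexokinase Hkdc1 (1.6 and 1.71 against 0.221 and 0.453). Hkdc1 rested on 18 and 22 reads against 3 and 2. It met the filter on low values through the libraries labelled knockdown alone. Tigar, which lowers fructose 2,6-bisphosphate, fell 1.29-fold (74.93 and 80.05 against 101.3 and 98.43).

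**Figure D4:**
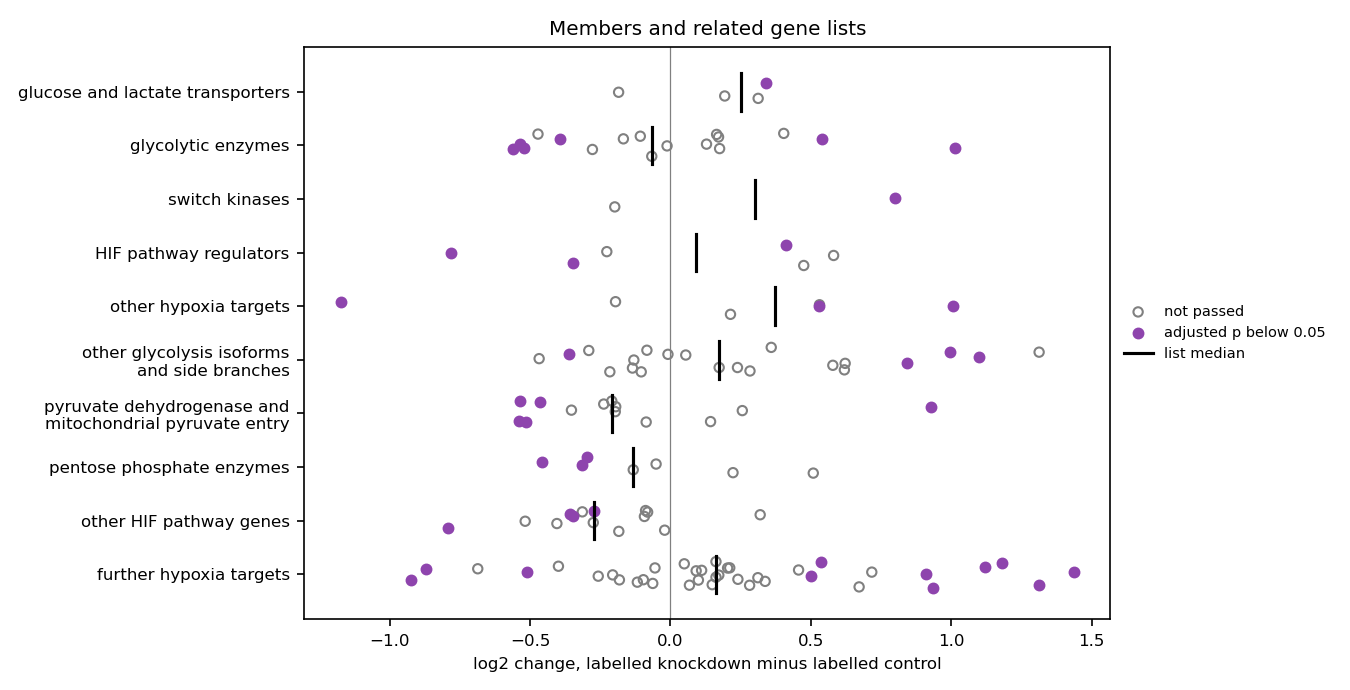
Log2 change (libraries labelled knockdown minus libraries labelled control) of each tested gene in the role groups and in 5 related lists; filled points passed at an adjusted p below 0.05, and black bars are list medians. Filled points lie on both sides of 0 for the glycolytic enzymes, the HIF regulators and both lists of hypoxia targets, and only below 0 for the pentose phosphate enzymes and the other HIF pathway genes.

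All 14 called members kept the sign of their change in each of the 20 alternatives in which they were tested, but not their calls. With a single prior variance in limma in place of a trend over expression, 3 of the 14 passed (Pfkm, Pfkfb3 and Adm) and 11 did not. With knockdown 1 or knockdown 2 left out, most of the 14 lost their calls, and far fewer of all genes tested were called. Pfkm, Epas1 and Bnip3 passed with each library left out. With control 1 or control 2 left out, the called members kept their calls and further members passed, as did many more of all genes tested. The spread in those fits came from the knockdown libraries alone. The libraries labelled control differed from each other by a median of 0.198 on the log2 scale over all genes, and the libraries labelled knockdown by 0.095.

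**Figure D5:**
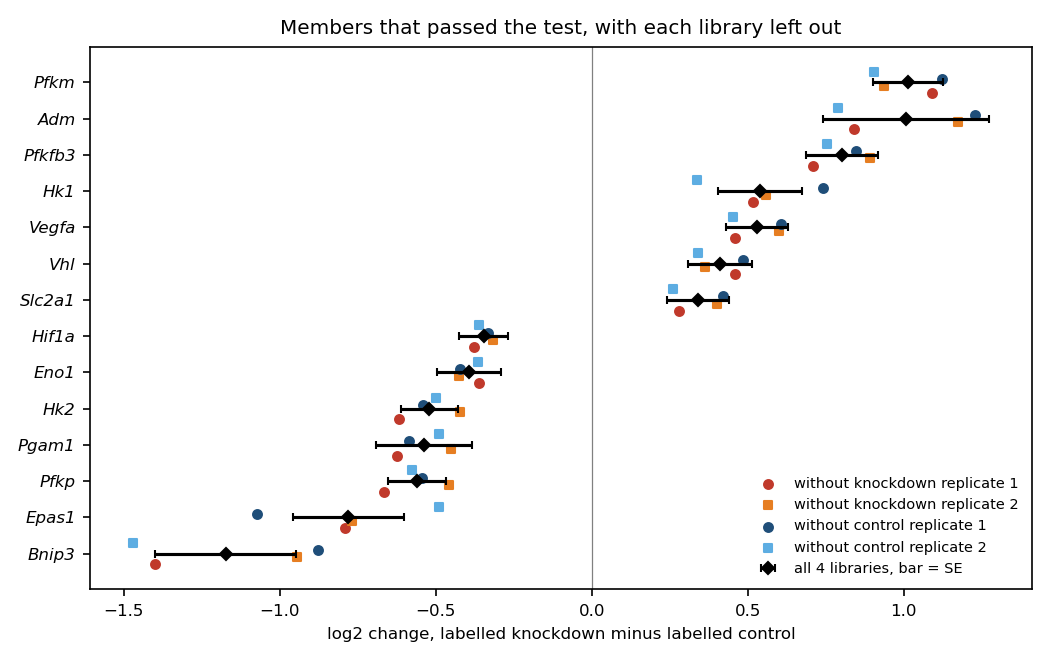
Log2 change of the 14 members that passed the test, from all 4 libraries (diamond, bar = SE) and with each library left out in turn (coloured points). No point crosses 0, and the points of Bnip3 (-1.47 to -0.88) and Epas1 (-1.07 to -0.49) are spread most widely.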

How the data were processed

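Poly(A) RNA was sequenced in single-end reads of 100 bases from 4 samples, 2 labelled eIF4A2 shRNA and 2 labelled control shRNA. The submitters' processing notes name Bowtie2 2.3.4.3, SAMtools 1.9, HTSeq 0.11.2, edgeR 3.26.8 and the build mm9; the strand setting, the annotation release and the handling of multiply mapped reads are not given in those notes. The deposited signal is gene counts that the authors scaled to an effective library size (CPM). 100% of its values came out as whole reads (tolerance 0.001). The authors' deposited table also holds log2 fold changes, a likelihood-ratio score and p-values, per the file headers.

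The values were tested with limma 3.58.1 in R 4.3.3 on log2(value + 1) with a variance trend, two-sided, with Benjamini-Hochberg adjustment over the 14890 genes that passed edgeR's filterByExpr. A fold change on the log2(value + 1) scale is smaller than the true one where a gene is low. On the recovered reads edgeR 4.0.16 (quasi-likelihood) and DESeq2 1.42.0 were alternatives. Recovered totals were 4604200 to 13681765 reads. The scripts were tested on simulated data. Gene positions and lengths come from GENCODE M21 (GRCm38), matched by symbol and ID, with no mm9 coordinate converted. Copies were searched with blastn. Promoters come from RefSeq (GRCm38.p6).

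The members and the gene lists were chosen with earlier results of these data known. All 35 members are described by role; in each other list up to 4 called genes with the smallest p are named.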

Additional observations from a re-analysis of the deposited data

How the results depend on the processing

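Of 698 values of single genes under other settings, 596 kept direction and call, 49 lost the call and 40 gained one. The other 13 changed sign and were counted by sign alone, whatever their call under that setting. All 13 were in genes that did not pass in limma on the deposited values. Of all genes tested, 3418 were called, against 2204 with DESeq2, 1932 without a variance trend and 653 to 7724 with 1 library left out. Members that rose numbered 3 without a variance trend and 1 to 17 with 1 library left out. Members that fell numbered 0 without a variance trend, 4 with library size only and 2 to 15 with 1 library left out. The median of the glycolytic enzymes was 0.0565 with library size only and -0.16 to 0.0258 with 1 library left out. That of the other hypoxia targets was 0.17 with a mean normalized count of at least 5, which leaves out Adm and Car9. Aldoc was 0.11 with library size only, 0.0254 with upper-quartile scaling, 0.0038 with DESeq2 size factors and 0.0668 after thinning. Tpi1 was 0.0565 and Pkm 0.0161 with library size only. With 1 library left out, log2 changes ran from -0.5661 to 0.5418 for Aldoc, -0.1591 to 0.0258 for Tpi1, -0.0248 to 0.2813 for Gapdh, -0.1469 to 0.4892 for Ldhb and -0.0212 to 0.4484 for Car9. The cause was not tested. With a replicate block 9 members rose and 8 fell, and 4632 of all genes were called; with the block and GC adjustment, 8 and 8. The labels tie same-numbered samples by number alone, and the correlation of their deviations was 0.036. Whether they were paired is not stated and was not tested. A fit without 1 library assumes that the lone sample varies like the other group. The log2 changes of all genes tested followed GC content (Spearman rho 0.269 across genes, which are not independent replicates). The 4604200 reads of control 2 limit the precision of every control mean.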
